A study of Mus musculus with 30 samples.

Results

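Among 6 sorted stromal populations of MMTV-PyMT mammary tumours, RNA of 9 complement genes was split mainly between macrophages and fibroblasts. The 3 chains of C1q and the anaphylatoxin receptor gene C3ar1 were macrophage transcripts. The protease gene C1ra, the central component C3 and the inhibitor Serping1 were fibroblast transcripts, and the inhibitor Cd55 was high only in CD34+ fibroblasts. C4b stood at high levels in CD206+ macrophages as well as in fibroblasts, and was lower in CD206- macrophages. The genes described are C1qa, C1qb, C1qc, C1ra, C3, C4b, Cd55, Serping1 and C3ar1, a list of 9 complement components, regulators and a receptor taken by symbol from a count matrix of 14118 genes. All 9 were in the matrix.

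Bulk RNA was sequenced from 6 stromal populations, isolated by flow cytometry from 5 tumours numbered 5, 6, 8, 10 and 11, giving 30 libraries. All mice carried the same transgene (FVB/N-Tg(MMTVPyVT)634Mul/J), in which the mouse mammary tumour virus promoter drives the polyoma middle T antigen in mammary epithelium, and each tumour had a volume of 750 mm3. No tumour-free tissue and no sorted tumour cells were among the samples, and the sample titles name no treatment. Each comparison is therefore between populations of the same tumours. Of these groups, 3 were tumour-associated macrophages (TAMs), gated CD45+ and F4/80+, named here CD206hi (CD206+ with low MHC class II), CD206pos (CD206+ with high MHC class II) and CD206neg (CD206- with low MHC class II). Endothelial cells (EC) were gated CD45- and CD31+. Cancer-associated fibroblasts were gated CD45-, CD31- and CD90+, and were split by CD34 into CAF1 (CD34-) and CAF2 (CD34+). Mouse age is not given in the sources used here.

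Complement is a cascade of plasma and tissue proteins that tags and lyses targets and recruits leukocytes. In the classical pathway, C1q binds immune complexes, dying cells or pathogens and activates the proteases C1r and C1s, which cleave C4 and C2 to build the enzyme that cleaves C3. C1 inhibitor, the product of Serping1, inactivates C1r and C1s, and CD55, also called decay-accelerating factor, dissociates the C3-cleaving enzymes on the cell membrane. C3aR, the product of C3ar1, binds the C3a fragment. Most plasma complement is made by the liver, but C1q is known as a product of macrophages and dendritic cells in tissues.

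The 3 C1q genes lie side by side on chromosome 4 within 18.7 kb, all on the minus strand, in the order C1qb (chr4:136880129-136886187), C1qc (chr4:136889804-136893065) and C1qa (chr4:136895917-136898803). C1ra lies at chr6:124512405-124523443 and C3ar1 at chr6:122847138-122856161. C3 lies at chr17:57203970-57228136, C4b at chr17:34728380-34743882, Cd55 at chr1:130439027-130462744 and Serping1 at chr2:84765387-84775444. Coordinates are whole genes of the GENCODE M21 annotation on GRCm38. C1ra, C4b and Cd55 have near copies: 50.8%, 35.2% and 13.3% of the 50-base stretches of their longest transcripts also occur in another gene, chiefly C1rb, C4a and Cd55b. Their counts, and those of the copies, are uncertain to the extent that the counting split or dropped such reads. The other 6 genes shared no such stretch.

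Promoters are shown for C1qb and C1qc, the C1q genes matched in the RefSeq promoter table used, which move together across the libraries. Those of C1ra and C3, whose mean levels were highest in the fibroblast groups, are shown too. Each spans 250 bases before to 50 bases after the annotated start (GRCm38.p6, RefSeq), read 5′ to 3′ on the gene's own strand. The windows are chr4:136886151-136886450 (minus) for C1qb, chr4:136892865-136893164 (minus) for C1qc, chr6:124512371-124512670 (plus) for C1ra and chr17:57228087-57228386 (minus) for C3. Capitals mark matches to the motifs named after the sequences.
C1qb: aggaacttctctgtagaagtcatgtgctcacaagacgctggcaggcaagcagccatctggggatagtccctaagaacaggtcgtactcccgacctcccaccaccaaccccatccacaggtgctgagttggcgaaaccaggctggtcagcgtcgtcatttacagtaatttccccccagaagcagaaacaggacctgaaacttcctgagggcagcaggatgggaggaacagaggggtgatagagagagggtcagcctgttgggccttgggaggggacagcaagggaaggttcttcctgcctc
C1qc: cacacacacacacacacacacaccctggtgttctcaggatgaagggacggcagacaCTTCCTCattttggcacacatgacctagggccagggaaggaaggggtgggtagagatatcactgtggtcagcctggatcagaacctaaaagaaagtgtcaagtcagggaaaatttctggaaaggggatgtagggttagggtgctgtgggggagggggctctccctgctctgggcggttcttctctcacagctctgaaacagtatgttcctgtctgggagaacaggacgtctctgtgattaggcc
C1ra: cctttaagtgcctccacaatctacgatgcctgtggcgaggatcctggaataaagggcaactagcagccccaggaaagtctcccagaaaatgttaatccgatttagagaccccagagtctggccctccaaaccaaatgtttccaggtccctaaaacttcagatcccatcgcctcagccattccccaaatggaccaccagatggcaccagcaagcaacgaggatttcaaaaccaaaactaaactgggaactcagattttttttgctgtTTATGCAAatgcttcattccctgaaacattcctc
C3: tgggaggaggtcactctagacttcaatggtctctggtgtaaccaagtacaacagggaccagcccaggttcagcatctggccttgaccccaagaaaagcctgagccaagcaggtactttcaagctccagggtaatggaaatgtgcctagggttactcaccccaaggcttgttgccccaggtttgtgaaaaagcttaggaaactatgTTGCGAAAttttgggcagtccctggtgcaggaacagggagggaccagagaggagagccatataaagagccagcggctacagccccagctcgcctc
A RefSeq promoter was matched for 6 of the 9 genes (Cd55, C1qb, C1qc, C3ar1, C1ra and C3). Motifs were chosen after the values were seen and searched on both strands. GAGGAAG, a form of the site of the myeloid factor PU.1, was found in C1qc alone, as CTTCCTC with its first base at -194, against 13.6% of 32851 promoters of the same length. TTGCNNAA, a form of the C/EBP site, was found in C1ra, as TTATGCAA from +17, and in C3, as TTGCGAAA from -45, against 10.8% of all promoters. A form of the interferon response element, GAAA repeated after a gap of any 2 bases, was found in 0 of the 6, against 3.44% of all promoters.

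Library totals were 6292411 to 11957076 counts, and levels are given as CPM, counts scaled to the library total. A count of 0 allows a level of up to 3 counts, or 0.251 to 0.477 CPM, by counting error only. Pecam1, Adgre1 and Cd34 followed the gates. Mean Pecam1 was 927 CPM in EC and at most 1.81 CPM elsewhere. Mean Adgre1 was 492 to 645 CPM in the TAM groups and at most 0.327 CPM elsewhere. Mean Cd34 was 53.8 CPM in CAF1 and 1603 CPM in CAF2. Mrc1, the CD206 gene, was 727 to 1439 CPM in CD206hi, 604 to 2064 CPM in CD206pos and 23.3 to 98.9 CPM in CD206neg. It was higher in CD206pos than in CD206hi in every tumour but tumour 6, so the name CD206hi does not reflect more Mrc1 RNA. The CD206neg libraries of tumours 6 and 8 went against their label of low MHC class II: H2-Aa, an MHC class II chain, was 7874 and 2778 CPM there, against 20.2 to 391 CPM in the other CD206neg libraries, and the count table names both as high MHC class II. Calls that change without those libraries are named beside the results. CAF1 held more of the summed markers of some other cell types than CAF2, with 354 to 1991 against 84.5 to 125 CPM for 7 pericyte genes and 233 to 1853 against 12.2 to 480 CPM for 8 luminal epithelial genes. For 4 myoepithelial genes the sums were 84.0 to 4086 CPM in CAF1 and 0.0836 to 8.99 CPM in CAF2. Mean endothelial sums were 86.4 CPM in CAF1 and 84.0 CPM in CAF2, and the 1 T and B cell gene in the matrix averaged 0.118 CPM in CAF1 and 1.25 CPM in CAF2. EC libraries also held 226 to 2580 CPM of the luminal, 104 to 1741 CPM of the pericyte and 63.4 to 1368 CPM of the myoepithelial genes.

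**Figure D1:**
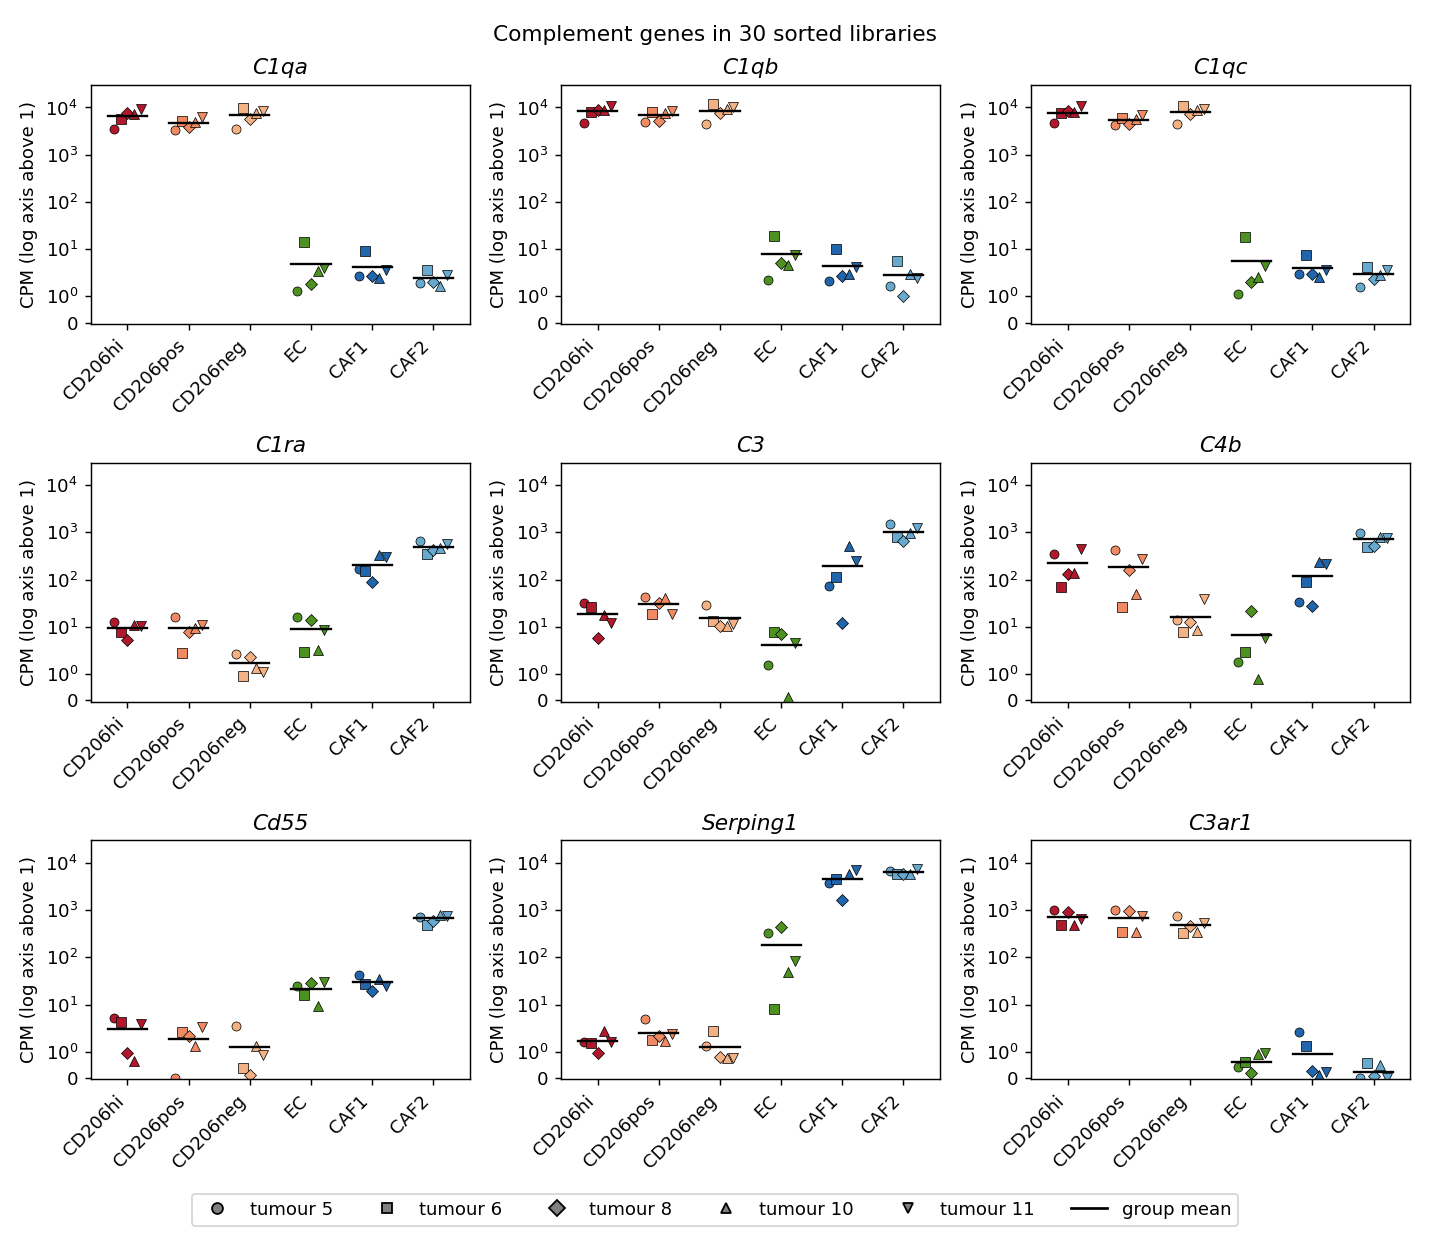
CPM of the 9 complement genes (vertical axis, logarithmic above 1 CPM and linear below) in the 30 libraries, by population (horizontal axis), with 1 marker shape per tumour and a line at the group mean. The C1q genes and C3ar1 fill the 3 macrophage groups, with C1qa between 3272 and 9823 CPM there, and Cd55 reaches 485 to 798 CPM only in CAF2.

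The first comparison sets macrophages against the stroma. In TAMs over fibroblasts, 4 of the 9 genes were higher (C1qa, C1qb, C1qc and C3ar1) and 5 were lower (C1ra, C3, C4b, Cd55 and Serping1) in edgeR's quasi-likelihood test at an adjusted p under 0.05. In the same comparison 68.1% of 13610 genes were called, 30.8% higher and 37.3% lower. In TAMs over EC, 6 genes were higher (the C1q genes, C3, C4b and C3ar1) and 2 were lower (Cd55 and Serping1), where 61.3% of all genes were called, 24.7% higher and 36.5% lower. In EC over fibroblasts, 0 were higher and 5 were lower (C1ra, C3, C4b, Cd55 and Serping1), where 45.2% of all genes were called, 23.0% higher and 22.1% lower. With 45.2% to 68.1% of all genes called between lineages, the counts themselves say little, and the sizes below carry the description. In bulk libraries of sorted cells, fewer cells of a type and less RNA per cell cannot be told apart.

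**Figure D2:**
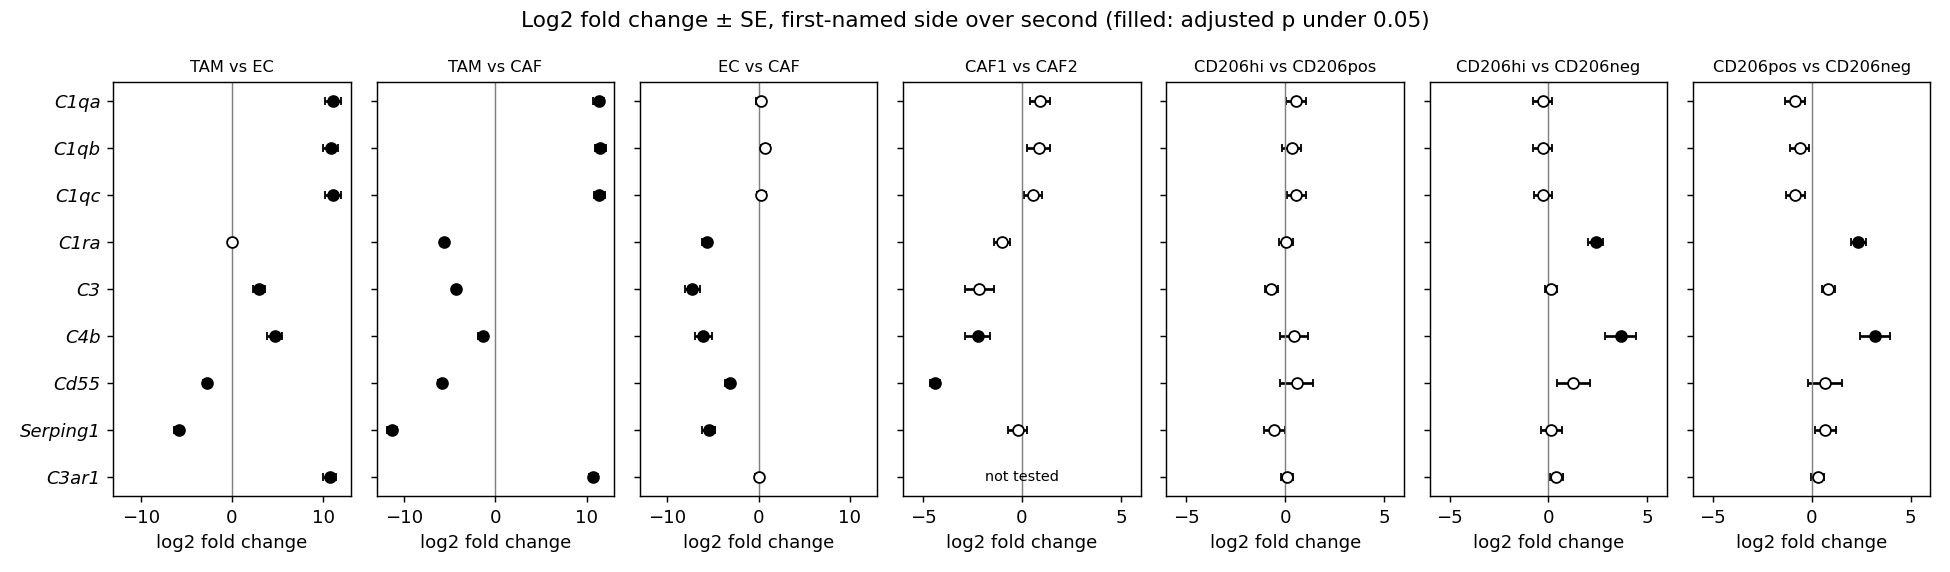
Log2 fold changes with their SE (horizontal axis) of the 9 genes in 7 comparisons, the first-named side over the second, from edgeR. Filled points have an adjusted p under 0.05. The C1q genes sit between 10.81 and 11.50 in both comparisons of TAMs with stroma, and Serping1 sits at -11.29 in TAMs over fibroblasts.

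C1qa encodes the A chain of C1q. It had 3473, 5783, 7512, 7349 and 9147 CPM in CD206hi of tumours 5, 6, 8, 10 and 11, then 3272, 5244, 3918, 4903 and 6328 CPM in CD206pos, and 3486, 9823, 5639, 7820 and 8425 CPM in CD206neg. In EC it had 1.33, 13.9, 1.87, 3.46 and 3.91 CPM, in CAF1 2.72, 9.16, 2.76, 2.47 and 3.67 CPM, and in CAF2 1.90, 3.62, 2.04, 1.67 and 2.78 CPM. The macrophage and stromal libraries lay far apart, and among the macrophages tumour 5 was lowest in CD206hi, CD206pos and CD206neg alike. The log2 fold change was 11.31 ± 0.61 (SE) in TAMs over fibroblasts (edgeR, adjusted p = 3.52e-16) and 11.09 ± 0.85 in TAMs over EC (adjusted p = 1.9e-12).

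C1qb and C1qc, the genes of the other 2 chains, followed the same pattern. C1qb averaged 8277 ± 2247 CPM in CD206hi, 6794 ± 1591 CPM in CD206pos, 8614 ± 2821 CPM in CD206neg, 7.71 ± 6.75 CPM in EC, 4.47 ± 3.32 CPM in CAF1 and 2.77 ± 1.81 CPM in CAF2 (n = 5 each, SD). C1qc averaged 7812 ± 2125 CPM in CD206hi, 5478 ± 1054 CPM in CD206pos, 8100 ± 2406 CPM in CD206neg, 5.56 ± 6.90 CPM in EC, 3.93 ± 2.05 CPM in CAF1 and 2.92 ± 1.03 CPM in CAF2 (n = 5 each, SD). The chains were thus at like levels in every population, and their order of populations, CD206neg, CD206hi, CD206pos, EC, CAF1 and CAF2 from high to low, was also that of C1qa. Of the 5 neighbouring pairs in that order, only CD206pos and EC differed for each chain (edgeR, adjusted p of 1e-11 to 1.63e-11). Per length of annotated exon, the 3 chains had mean levels of 4551 to 7917 CPM per kb in the TAM groups.

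The trace of C1q in the stroma was set beside macrophage markers in the same libraries. Summed over the 3 chains, stromal C1q was 0.0276% to 0.209% of the macrophage mean of the same tumour. Lyz2, a lysozyme gene of myeloid cells, stood at 0.101% of the macrophage mean in EC, 0.0802% in CAF1 and 0.0430% in CAF2, and C1qa at 0.0744% in EC, 0.0687% in CAF1 and 0.0407% in CAF2 (means, n = 5). Over all 9 macrophage markers the fractions spread widely, from 0.0564% (Adgre1) to 5.41% (Mertk) in EC, from 0.0708% (Adgre1) to 14.3% (Mertk) in CAF1 and from 0.0430% (Lyz2) to 5.27% (Mertk) in CAF2. C1qa lay below 7 of the 9 in EC and below all 9 in CAF1 and in CAF2. EC of tumour 6 had the highest values, with 50.9 CPM of C1q and 620 CPM of 9 summed macrophage markers, against 4.65 to 15.6 CPM and 214 to 426 CPM in EC of the other tumours. Whether the stromal C1q reads come from macrophages was not tested. The C1q genes did not pass the test in EC over fibroblasts (edgeR, adjusted p of 0.285 to 0.764), and leaving out EC of tumour 6 turned the sign of all 3.

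C3ar1 was the receptor of the list. It had 988, 485, 896, 492 and 642 CPM in CD206hi of tumours 5, 6, 8, 10 and 11, then 1006, 354, 961, 344 and 766 CPM in CD206pos, and 753, 328, 470, 351 and 538 CPM in CD206neg. The highest stromal library, CAF1 of tumour 5, had 2.62 CPM, and 2 CAF2 libraries had 0. Tumours 6 and 10 were the lowest and tumour 5 the highest in each macrophage group, and no stromal library came near them. C3ar1 differed by a log2 fold change of 10.71 ± 0.49 in TAMs over fibroblasts (edgeR, adjusted p = 6.32e-18) and 10.68 ± 0.67 in TAMs over EC (adjusted p = 2.09e-14). In order of level, the steps among CD206hi, CD206pos and CD206neg did not pass the test, nor did those among CAF1, EC and CAF2.

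Serping1, the gene of C1 inhibitor, was the most abundant fibroblast transcript of the list, with 2276 CPM per kb in CAF1 and 3148 CPM per kb in CAF2. It had 1.62, 1.54, 0.968, 2.78 and 1.66 CPM in CD206hi of tumours 5, 6, 8, 10 and 11, and 0.753 to 4.88 CPM in the other TAM libraries. In CAF1 it had 3714, 4494, 1658, 5953 and 7063 CPM, and in CAF2 6826, 5866, 5717, 5761 and 7485 CPM. CAF2 was even across tumours, whereas CAF1 of tumour 8 stood low and that of tumour 11 high. TAMs over fibroblasts gave a log2 fold change of -11.29 ± 0.55 (edgeR, adjusted p = 2.69e-17). CAF1 over CAF2 gave -0.22 ± 0.46, which did not pass (adjusted p = 0.799).

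In EC, Serping1 had 336, 8.24, 450, 49.8 and 84.5 CPM in tumours 5, 6, 8, 10 and 11. The summed level of 7 fibroblast markers in the same EC libraries was 1013, 137, 1443, 101 and 410 CPM, and that of the pericyte genes was 801, 104, 1741, 290 and 261 CPM. Tumours 8 and 5 were thus highest for all 3 measures. As a share of the same tumour's fibroblast mean, Serping1 in EC was 4.15% ± 5.14 and the fibroblast markers were 0.916% ± 0.962 (SD, n = 5). The part of fibroblast or pericyte RNA in EC Serping1 was not tested. EC over fibroblasts gave -5.46 ± 0.70 (edgeR, adjusted p = 1.9e-07), and TAMs over EC gave -5.83 ± 0.48 (adjusted p = 1.06e-11).

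C1ra encodes the C1r protease, which C1 inhibitor blocks. It had 12.4, 7.96, 5.27, 10.9 and 10.3 CPM in CD206hi of tumours 5, 6, 8, 10 and 11, then 16.0, 2.86, 7.64, 9.53 and 11.2 CPM in CD206pos, and 2.73, 0.927, 2.35, 1.33 and 1.13 CPM in CD206neg. It had 167, 156, 88.1, 330 and 296 CPM in CAF1 and 654, 352, 433, 471 and 563 CPM in CAF2. Every CAF2 library lay above every CAF1 library, and both lay above all others. EC averaged 8.96 ± 6.12 CPM (SD, n = 5), with 2.87 to 16.4 CPM. Every CD206neg library lay below every EC library, and the step between EC and CD206neg passed (1.56 ± 0.49 on the log2 scale, higher over lower, edgeR, adjusted p = 0.00821, and 0.0318 without the CD206neg libraries of tumours 6 and 8), though not without tumour 5 (0.0614). Its log2 fold change was -5.66 ± 0.31 in TAMs over fibroblasts (edgeR, adjusted p = 3.33e-16) and 0.02 ± 0.39 in TAMs over EC (adjusted p = 0.972). C1s1, encoding the partner protease C1s, averaged 0.242 ± 0.212 CPM in 15 TAM libraries and 524 ± 332 CPM in 10 fibroblast libraries (SD). Such SDs over all TAM or fibroblast libraries, here and below, mix spread between populations with spread between the 5 tumours. The log2 fold change of C1s1 in TAMs over fibroblasts was -10.62 ± 0.55 (edgeR, adjusted p = 1.06e-16). The recognition chains of the C1 complex and its proteases were therefore measured in different sorted populations.

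C3, the component on which all activation routes meet, had 32.9, 25.8, 5.70, 18.2 and 11.8 CPM in CD206hi of tumours 5, 6, 8, 10 and 11, then 42.4, 18.9, 32.2, 40.8 and 18.7 CPM in CD206pos, and 29.7, 13.5, 10.5, 10.6 and 11.4 CPM in CD206neg. EC had 0.115 to 7.61 CPM. CAF1 had 74.9, 111, 12.1, 529 and 248 CPM and CAF2 had 1517, 802, 651, 979 and 1260 CPM. All CAF2 libraries lay above all CAF1 libraries, and CAF1 of tumour 8 lay within the macrophage range. The log2 fold change was -4.26 ± 0.43 in TAMs over fibroblasts (edgeR, adjusted p = 3.88e-10), 3.0 ± 0.64 in TAMs over EC (adjusted p = 0.000177) and -7.25 ± 0.81 in EC over fibroblasts (adjusted p = 1.47e-08).

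C4b, the gene of the component that C1s cleaves, was the one member with high values on both sides. It had 346, 70.1, 134, 139 and 451 CPM in CD206hi of tumours 5, 6, 8, 10 and 11, then 429, 27.0, 158, 49.8 and 273 CPM in CD206pos, and 13.8, 7.82, 12.5, 8.45 and 39.8 CPM in CD206neg. It had 34.4, 89.6, 27.7, 235 and 211 CPM in CAF1 and 997, 503, 507, 804 and 759 CPM in CAF2, while EC had 0.808 to 21.8 CPM. CD206hi, CD206pos and CAF1 overlapped, with tumours 5 and 11 high in both CD206+ groups, and CAF2 lay above every other library. Summed fibroblast markers were 5.65 to 34.8 CPM in the TAM libraries, against 38178 to 167049 CPM in CAF1. From high to low the order was CAF2, CD206hi, CD206pos, CAF1, CD206neg and EC, and only the last 2 steps passed (CAF1 and CD206neg, adjusted p = 0.00928, and CD206neg and EC, adjusted p = 0.0173, edgeR). The step between CAF1 and CD206neg was lost without the CD206neg libraries of tumours 6 and 8 (edgeR, adjusted p = 0.0734) or without tumour 10 (0.0547), and that between CD206neg and EC without CD206neg of tumour 11 (0.125) or all of tumour 11 (0.139). The log2 fold change was -1.39 ± 0.49 in TAMs over fibroblasts (edgeR, adjusted p = 0.0136), a call lost without tumour 6 (adjusted p = 0.0557) or tumour 10 (adjusted p = 0.0995). It was 4.67 ± 0.86 in TAMs over EC (adjusted p = 2.72e-05) and -6.06 ± 0.94 in EC over fibroblasts (adjusted p = 4.12e-06).

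Cd55, the membrane regulator, was a CAF2 transcript. It had 0 to 5.26 CPM in the 15 TAM libraries. It had 25.1, 15.7, 28.2, 9.24 and 30.2 CPM in EC of tumours 5, 6, 8, 10 and 11, then 43.1, 26.7, 19.5, 35.4 and 25.0 CPM in CAF1, and 718, 485, 605, 798 and 749 CPM in CAF2. EC and CAF1 overlapped, and every CAF2 library lay far above both. CAF1 over CAF2 gave a log2 fold change of -4.38 ± 0.24 (edgeR, adjusted p = 1.17e-06), lower in 5 of 5 tumours. It was -2.73 ± 0.41 in TAMs over EC (adjusted p = 9.61e-07), -5.88 ± 0.38 in TAMs over fibroblasts (adjusted p = 1.76e-14) and -3.14 ± 0.51 in EC over fibroblasts (adjusted p = 7.03e-06).

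**Figure D3:**
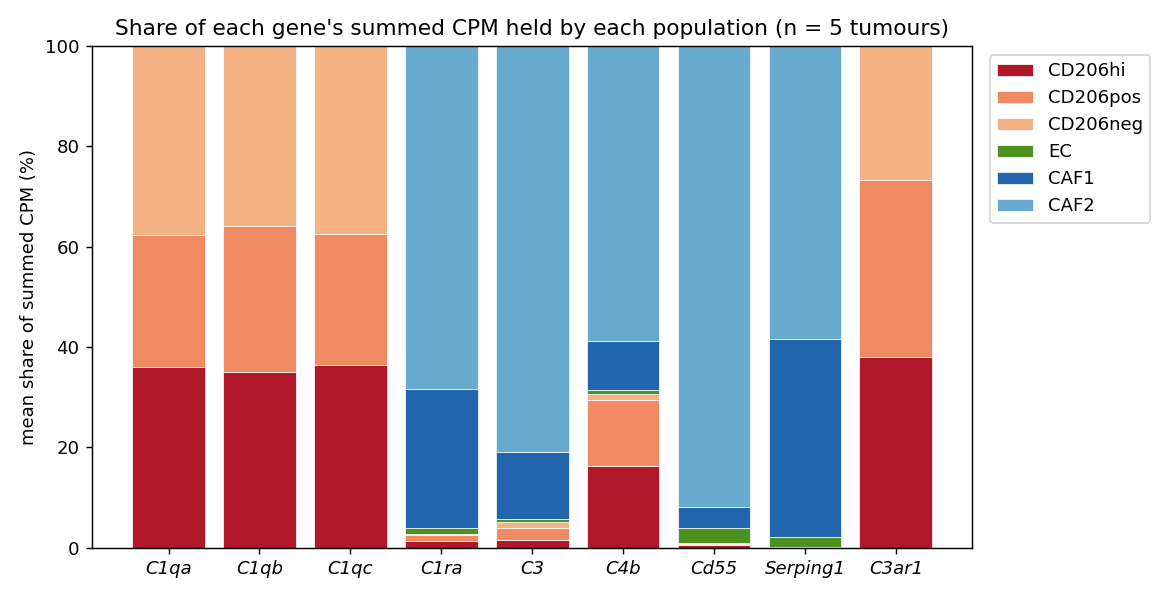
Mean share of each gene's CPM, summed over the 6 populations of a tumour, that each population held (vertical axis, percent, n = 5 tumours), for the 9 genes (horizontal axis). The 3 macrophage populations hold 99.9% for each C1q gene and C3ar1, and 30.7% for C4b.

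The distribution over populations was summarised as the share of a gene's CPM, summed over the 6 populations of a tumour, that fell in the macrophages, which are 3 of those 6 libraries. These shares weight the populations equally and do not reflect how many cells of each a tumour held. The macrophage share was 99.9% for C1qa, C1qb, C1qc and C3ar1. It was 30.7% ± 14.3 for C4b, 5.20% ± 1.64 for C3, 2.76% ± 0.503 for C1ra, 0.874% ± 0.419 for Cd55 and 0.0516% ± 0.0148 for Serping1 (SD, n = 5). CAF2 alone held 92.0% of Cd55 and 81.0% of C3, whereas Serping1 was spread over CAF1 with 39.5% and CAF2 with 58.5%. Over the 9 genes, 15 of 45 neighbouring pairs in the orders of levels passed the test. Those 15 pairs came from 7 pairwise contrasts in the fit of all libraries. Of all genes, 51.6% were called in CD206hi over EC, 54.3% in CD206pos over EC and 55.0% in CD206neg over EC. The shares were 56.0% in CD206pos over CAF1, 56.9% in CD206neg over CAF1, 34.7% in EC over CAF1 and 16.4% in CAF1 over CAF2.

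The next comparison was between the fibroblast subsets. In CAF1 over CAF2, 0 of the 8 tested members were higher and 2 were lower, Cd55 and C4b, where 19.5% of 12149 genes were called, 10.9% higher and 8.59% lower. C3ar1 was too low to be tested. C4b gave -2.23 ± 0.63 (edgeR, adjusted p = 0.0246), a call lost without CAF1 of tumour 6 (adjusted p = 0.0657), CAF2 of tumour 11 (0.0519), tumour 5 (0.0571) or tumour 6 (0.0833). C3 gave -2.15 ± 0.75 (edgeR, adjusted p = 0.0628) and C1ra -1.0 ± 0.40 (adjusted p = 0.101), and neither passed. With tumour as a block both passed, C3 at -3.08 (adjusted p = 0.0238) and C1ra at -1.26 (adjusted p = 0.0353). C3 also passed without CAF1 of tumour 8 (edgeR, adjusted p = 0.0394) or of tumour 10 (0.0225), and without all of tumour 8 (0.0464) or of tumour 10 (0.0398). C1ra passed without CAF1 of tumour 11 (edgeR, adjusted p = 0.0195) or all of tumour 11 (0.0483). In CAF1 the libraries of tumours 10 and 11, which were highest for C3, C4b, C1ra and Serping1, had 528 and 354 CPM of the pericyte genes, against 1472 to 1991 CPM in tumours 5, 6 and 8. CAF1 and CAF2 also differed in these markers, as given above, and their part in the differences was not tested.

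Within the macrophages, the C1q genes, C3, C3ar1, Cd55 and Serping1 did not pass the test in any pair of groups when all libraries were used with no block. In CD206hi over CD206neg, 2 of 9 members were higher, C1ra and C4b, and 0 were lower, where 10% of 11052 genes were called, 6.14% higher and 3.9% lower. C1ra gave 2.38 ± 0.39 (edgeR, adjusted p = 0.00051) and C4b 3.65 ± 0.78 (adjusted p = 0.00474). In CD206pos over CD206neg the same 2 genes were higher, where 14.7% of all genes were called, 8.85% higher and 5.85% lower. There C1ra gave 2.35 ± 0.38 (edgeR, adjusted p = 0.000511) and C4b 3.19 ± 0.77 (adjusted p = 0.00919). Without the CD206neg libraries of tumours 6 and 8, C1ra still passed in both, whereas C4b did not, at 3.26 (adjusted p = 0.0681) for CD206hi and 2.81 (adjusted p = 0.0801) for CD206pos. C4b also missed in CD206pos over CD206neg without tumour 5 (adjusted p = 0.074). With tumour as a block, C3 passed in CD206pos over CD206neg at 0.90 (adjusted p = 0.012), against 0.83 ± 0.32 without it (adjusted p = 0.0914), and it passed without CD206hi of tumour 8 (0.0428).

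Summed over the 5 dendritic cell markers in the matrix, the mean was 116 CPM (6.35 to 261) in CD206hi, 141 CPM (32.7 to 233) in CD206pos and 17.7 CPM (10.4 to 21.5) in CD206neg. The part of such cells in C1ra and C4b was not tested. In CD206hi over CD206pos, 0 of 9 members passed in edgeR, where 0.19% of all genes were called, 0.00905% higher and 0.181% lower. DESeq2, which called 83 genes in all, also called 0 members. At an unadjusted p under 0.05 in edgeR there was 1 member, C3, where 7.25% of all genes were under that threshold.

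The ratios of the C1q chains were compared between macrophage groups in an analysis added after the data were seen. The p-values below do not cover that choice, and the unpaired tests ignore that libraries pair by tumour. C1qc over C1qb in read counts was 0.982, 0.921, 0.950, 0.909 and 0.969 in CD206hi of tumours 5, 6, 8, 10 and 11, then 0.883, 0.757, 0.856, 0.752 and 0.827 in CD206pos, and 1.02, 0.913, 0.955, 0.931 and 0.934 in CD206neg. CD206pos was lowest in every tumour, and its range did not overlap those of the other groups. The log2 difference was 0.22 for CD206hi minus CD206pos and -0.22 for CD206pos minus CD206neg, each with p = 0.00794 in a two-sided exact permutation test, the smallest that 5 against 5 libraries allow, and 0.0238 when adjusted over 6 tests. Without the CD206neg libraries of tumours 6 and 8, CD206pos minus CD206neg was -0.24 (exact permutation p = 0.0357). CD206hi minus CD206neg gave -0.01 (exact permutation p = 0.833).

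C1qa over C1qb averaged 0.795 ± 0.0674 in CD206hi, 0.697 ± 0.0566 in CD206pos and 0.811 ± 0.0382 in CD206neg (SD, n = 5 each). It was lowest in CD206pos in every tumour, but CD206hi of tumours 5 and 6 and CD206neg of tumour 8 fell within the CD206pos range. The difference of CD206pos minus CD206neg was -0.22 (exact permutation p = 0.0159, adjusted 0.0317, and 0.0357 without those CD206neg libraries), and that of CD206hi minus CD206pos was 0.19 (exact permutation p = 0.0476, adjusted 0.0714). The first was 0.0571 without tumour 5, 6 or 10 and the second 0.0857 to 0.171 without any 1 tumour, in exact permutation tests that can reach 0.0286. Pairing the libraries by tumour gave an exact permutation p of 0.0625 for each of the 4 differences that involve CD206pos, the smallest that 5 pairs allow.

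**Figure D4:**
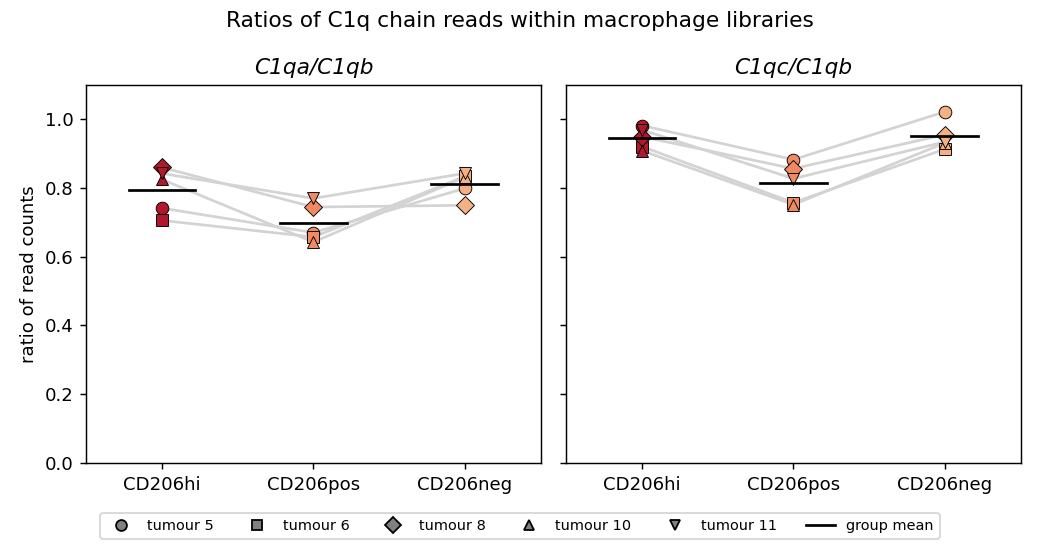
Ratio of read counts of C1qa to C1qb (left) and of C1qc to C1qb (right) in the 15 macrophage libraries (vertical axis), by group, with grey lines joining the libraries of 1 tumour and black lines at the group means. CD206pos has the lowest mean in both panels, 0.697 and 0.815.

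The rest of the pathway was read from lists of 50 further complement genes, of which 33 were in the matrix. In TAMs over fibroblasts, 10 of 32 tested were higher and 18 were lower, with a median log2 fold change of -1.66 against -0.10 over all genes, so 28 were called where 68.1% of all genes were. In TAMs over EC, 12 were higher and 10 lower, with a median of -0.21 against -0.17 over all genes, so 22 were called where 61.3% of all genes were. In EC over fibroblasts, 2 were higher and 13 lower, with a median of -0.775 against 0.04, so 15 were called where 45.2% of all genes were. The shares called in TAMs over EC and in EC over fibroblasts were thus near those of all genes.

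The list genes that passed at 10 CPM or more in the higher group are named. In TAMs over fibroblasts and also in TAMs over EC, the receptor genes C5ar1, C5ar2, Itgam, Itgax, Itgb2 and Vsig4, and the component genes Fcna, Cfp and C6, were higher. Cfb, encoding factor B of the alternative pathway, and Colec12, a scavenger collectin gene, were higher in TAMs over EC (3.05 ± 0.58 and 2.89 ± 0.51) and lower in TAMs over fibroblasts (-1.61 ± 0.37 and -1.40 ± 0.33). The serine protease genes C1s2, Masp1 and C1rb, and C2, whose product C1s cleaves, were also lower in TAMs over fibroblasts, with 25.4 to 67.6 CPM in fibroblasts and at most 1.39 CPM in TAMs (means). In TAMs over EC, C1s1, Cd59a, Clu, Vtn and Thbd, the thrombomodulin gene, were lower, with log2 fold changes of -8.52 to -1.45. In EC over fibroblasts, C1rb, C1rl, C1s1, C1s2, C2, Masp1, Colec12 and Cfb were lower, at -5.665 to -3.17.

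Receptors were on the macrophage side. All 8 measured receptor genes, C3ar1 included, were higher in TAMs over fibroblasts, where 30.8% of all genes were, though C1qbp, a mitochondrial C1q-binding protein gene found in all cells, passed at 0.26 ± 0.12 (edgeR, adjusted p = 0.0488) with 62.4 ± 23.4 CPM in TAMs and 63.2 ± 15.2 CPM in fibroblasts before TMM scaling. That call was lost in 26 of 40 alternatives, with an adjusted p of up to 0.287 without tumour 10. The other receptor genes averaged at most 1.13 CPM in fibroblasts, so their calls could hardly go the other way. C5ar1, the C5a receptor gene, averaged 1818 ± 947 CPM in TAMs and 1.13 ± 0.950 CPM in fibroblasts, a log2 fold change of 11.02 ± 0.60 (edgeR, adjusted p = 4.36e-16). Itgam and Itgb2, which encode the chains of complement receptor 3, averaged 210 ± 102 and 299 ± 89.6 CPM in TAMs, against 0.192 ± 0.206 and 0.370 ± 0.179 CPM in fibroblasts. Vsig4, a macrophage receptor for C3 fragments, averaged 28.4 ± 37.7 CPM in TAMs and was at 0 in all 10 fibroblast libraries.

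Most regulator genes were lower in macrophages. Of 11 regulator genes counted, Cd55 and Serping1 included, 0 were higher and 10 were lower in TAMs over fibroblasts, where 37.3% of all genes were lower, and 8 were lower in TAMs over EC, where 36.5% were. Among them, Csmd1, Cfi, Susd4 and Cd59b averaged 2.37, 3.62, 0.556 and 3.10 CPM in fibroblasts and 0 to 0.466 CPM in TAMs. At such levels their calls could hardly go the other way, so the count is partly set by the filter on low counts. The one that did not pass against fibroblasts was Cr1l, the gene of the mouse membrane regulator Crry, with 74.1 ± 19.4 CPM in TAMs and 105 ± 31.9 CPM in fibroblasts (edgeR, adjusted p = 0.131). Vtn, encoding vitronectin, averaged 0.0418 ± 0.0791 CPM in TAMs and 34.7 ± 30.5 CPM in fibroblasts. Clu, encoding clusterin, gave -2.75 ± 0.46 (edgeR, adjusted p = 4.74e-06), and in EC it averaged 157 ± 35.8 CPM, above both TAMs and fibroblasts in mean level. Cd59a, whose product blocks the membrane attack complex, gave -3.21 ± 0.27 (adjusted p = 1.2e-11).

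The membrane regulators Cd55 and Cd59a ran in opposite directions between the fibroblast subsets. Cd59a averaged 193 ± 65.2 CPM in CAF1 and 14.2 ± 6.95 CPM in CAF2, a log2 fold change of 3.94 ± 0.45 (edgeR, adjusted p = 9.15e-05, higher in 5 of 5 tumours), beside -4.38 for Cd55. In CAF1 over CAF2, 5 of 20 tested list genes were higher and 7 lower, with a median of 0.02 against 0.01 over all genes. Of all genes, 19.5% were called, 10.9% higher and 8.59% lower. These 12 calls were 6 in the fit of all 30 libraries, where 16.4% of all genes were called. They were 7 without CAF1 of tumour 6, CAF2 of tumour 11 or all of tumour 11. C1s1 gave -1.40 ± 0.35 (edgeR, adjusted p = 0.013, 0.0601 without tumour 5), with 259 ± 102 CPM in CAF1 and 789 ± 249 CPM in CAF2. Cfb averaged 119 ± 127 CPM in CAF1 and 619 ± 190 CPM in CAF2 (-2.13 ± 0.69, adjusted p = 0.0466). The call of Cfb was lost in 11 of 20 alternatives, without any of tumours 5, 6 and 11 among them, where the adjusted p was 0.132, 0.145 and 0.0944 (edgeR). Higher in CAF1 were also Vtn (2.33 ± 0.39, adjusted p = 0.00111) and Colec12 (1.43 ± 0.24, adjusted p = 0.00109). The summed pericyte, luminal and myoepithelial markers were higher in CAF1 too, as given above. Their part in the differences of the list genes was not tested. Lower in CAF1 were also Thbd (-1.44 ± 0.23, adjusted p = 0.000882), C1s2 (-1.35 ± 0.36, adjusted p = 0.019) and Cr1l (-0.53 ± 0.14, adjusted p = 0.0204). The call of C1s2 was lost without CAF1 of tumour 6 (edgeR, adjusted p = 0.0539), tumour 5 (0.0869) or tumour 10 (0.0522). That of Cr1l was lost without CAF1 of tumour 6 (0.0543), CAF2 of tumour 11 (0.0578), or tumour 5 (0.068), 8 (0.067) or 11 (0.0643).

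Among macrophages, 7 of 19 tested list genes were higher and 1 was lower in CD206hi over CD206neg, with a median of 0.97 against 0.02 over all genes. Of all genes, 6.14% were higher and 3.9% lower in that comparison. The 7 were Fcna, C6, Vsig4, Thbd, Cfp and Cfb, and C4a, a near copy of C4b, at a mean of only 1.63 CPM in CD206hi. The same 7 were higher in CD206pos over CD206neg, which shares the CD206neg libraries, where 8.85% of all genes were higher and 5.85% lower. Fcna, encoding the lectin pathway protein ficolin A, averaged 409 ± 286 CPM in CD206hi, 181 ± 150 CPM in CD206pos and 3.35 ± 2.13 CPM in CD206neg. Cfp, encoding properdin, which stabilises the alternative pathway enzyme, averaged 558 ± 330 CPM in CD206hi, 811 ± 336 CPM in CD206pos and 117 ± 48.0 CPM in CD206neg. Its call in CD206hi over CD206neg was lost without tumour 11 (edgeR, adjusted p = 0.0737) and without the CD206neg libraries of tumours 6 and 8 (0.0836), and that of C4a without those CD206neg libraries (0.0606). The call of Cfb in CD206pos over CD206neg was lost without tumour 5 (edgeR, adjusted p = 0.0511). Itgax, the CD11c gene, was the 1 gene lower, at -2.89 ± 0.46 (edgeR, adjusted p = 0.00047). In CD206pos over CD206neg, Itgax (-2.05 ± 0.44, adjusted p = 0.0047) and C1qbp (-0.79 ± 0.22, adjusted p = 0.0196) were lower. There the call of C1qbp was lost without CD206pos of tumour 11 (edgeR, adjusted p = 0.0523), CD206neg of tumour 10 (0.0633), or tumour 5 (0.0532), 8 (0.062), 10 (0.0602) or 11 (0.0667). In CD206hi over CD206pos, 0 of 19 passed in edgeR and in DESeq2, with 3 at an unadjusted p under 0.05 (C2, Fcna and Vsig4) where 7.25% of all genes were, and 1 of these, Vsig4, passed with tumour as a block.

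**Figure D5:**
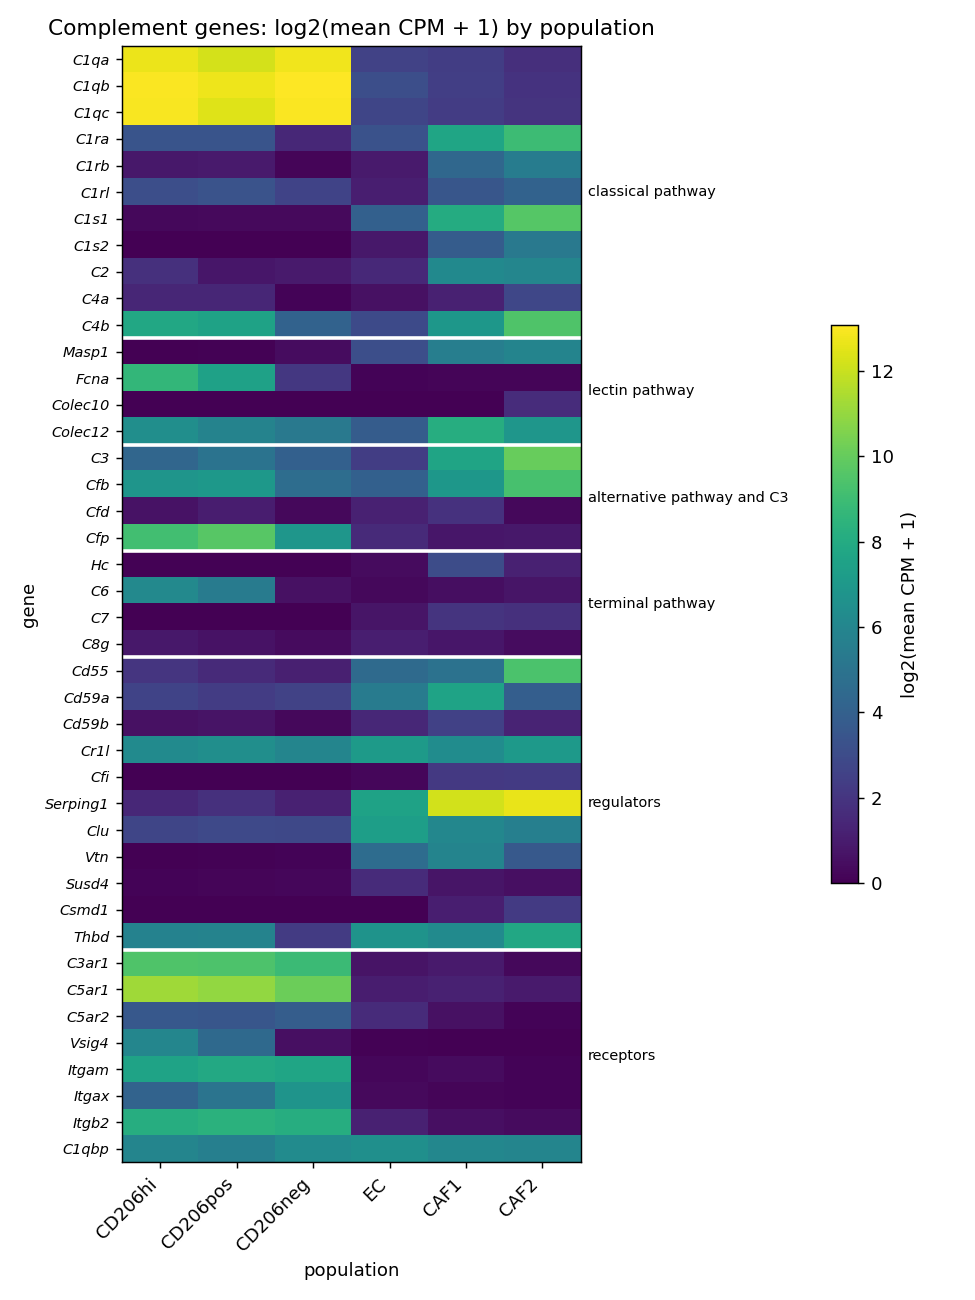
Mean level of 42 complement genes (rows, grouped by role, with white lines between roles) in the 6 populations (columns), as the log2 of mean CPM plus 1 (colour scale). The C1q chains and all receptors but C1qbp are brightest in the macrophage columns. Serping1, C1s1 and C3 are brightest in the fibroblast columns, where mean Serping1 is 4576 CPM in CAF1 and 6331 CPM in CAF2.

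For each gene the most similar profiles over the 30 libraries were found among 10192 genes, as Pearson's r of the log2 of TMM-scaled CPM plus 1. These correlations describe libraries that share tumours and fall into lineages. The C1q genes were each other's nearest, with r of 0.999 or more. C3ar1 was nearest to Hpgds (r = 0.997) and Adgre1 (r = 0.997), Serping1 to the matrix genes Aspn (r = 0.994) and Col5a1 (r = 0.991), and C1ra to its copy C1rb (r = 0.987) and to Ifi205 (r = 0.972). Cd55 was nearest to Tmem100 (r = 0.962) and Sema3c (r = 0.956). C4b, nearest to B3galnt1 (r = 0.949) and Idh1 (r = 0.939), and C3, nearest to Gstm1 (r = 0.925) and Rhoq (r = 0.922), had the least similar nearest profiles.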

How the data were processed

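RNA was measured in 30 libraries of 6 sorted populations from 5 tumours. Per the labels' protocols, tumours were digested enzymatically, cDNA was amplified with a low-input SMARTseq v4 kit, and libraries were sequenced together. The submitters' processing notes name mm10 and the tools Trimmomatic 0.36, SAMtools 1.3.1, HISAT2 2.0.4 and DESeq2 1.26. How reads were counted, and whether strand was used, is not given in the sources used here, so reads of overlapping and antisense genes cannot be told apart. The deposited values used are raw counts per Entrez gene, and the smallest gene total is 72. The authors' normalised matrix was not used. A further complement gene is not reported here.

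The 9 genes and all gene lists were chosen with earlier results of these data known. CPM are counts over the library total. Levels per length use the exons of GENCODE M21. The tests were edgeR 4.0.16 quasi-likelihood F tests in R 4.3.3, after filterByExpr and TMM scaling, with Benjamini-Hochberg adjustment over all genes tested. CAF1 over CAF2 used 10 libraries (12149 genes), the macrophage pairs 15 (11052 genes) and comparisons between lineages all 30 (13610 genes). The SE is the log2 fold change over the square root of F. The fits were tested on simulated data. Chain ratios were tested with exact permutation tests (SciPy 1.17.1).

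All populations of a tumour come from 1 animal, so tumours pair the libraries. The correlation of same-tumour deviations was -0.00326 to 0.361 in fibroblasts, 0.0993 to 0.629 in macrophages and 0.00284 to 0.536 in all libraries. The fits reported carry no block. Results were recomputed with DESeq2 1.42.0, with tumour as a block, without the filter, with RLE factors, in a fit of all 30 libraries, and with libraries or tumours left out. Beyond the 9 genes, list genes are named where they passed at 10 CPM or more in the higher side (C2 and C4a in the macrophage pairs, below that, were named after their values were seen), and in the nearest profiles the first 2 genes. Totals of 6292411 to 11957076 counts set the precision of low levels.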

Additional observations from a re-analysis of the deposited data

Results flagged for a closer look

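In 10 of 54 groups of 5 libraries, a member's highest library stood apart from the other 4 by more than Dixon's critical value of 0.71 (gap over range). That value marks about 1 group in 20 only for independent, normally distributed values. CPM of correlated genes in shared tumours are not independent, so the number of flags cannot be set against that rate. Of these, 5 are C1q levels in stroma of tumour 6. In EC of tumour 6, C1qa was 13.9 CPM (1.33 to 3.91 CPM in the other tumours) and C1qc was 17.7 CPM (1.11 to 4.38 CPM). In CAF1 of tumour 6, C1qa was 9.16 CPM (2.47 to 3.67 CPM), C1qb was 10.3 CPM (2.12 to 4.16 CPM) and C1qc was 7.53 CPM (2.59 to 3.67 CPM). Summed macrophage markers were 620 CPM in that EC library (214 to 426 CPM in the other EC libraries) and 190 CPM in that CAF1 library. CAF1 of tumour 5 also had 190 CPM of these markers, with 7.76 CPM of summed C1q against 26.9 CPM in CAF1 of tumour 6.

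C3 was 29.7 CPM in CD206neg of tumour 5 (10.5 to 13.5 CPM in the others). C4b was 39.8 CPM in CD206neg of tumour 11 (7.82 to 13.8 CPM) and 21.8 CPM in EC of tumour 8 (0.808 to 5.93 CPM), where fibroblast markers were also highest, at 1443 CPM. Serping1 was 4.88 CPM in CD206pos of tumour 5 (1.69 to 2.34 CPM) and 2.78 CPM in CD206neg of tumour 6 (0.753 to 1.32 CPM), from 47 and 21 counts.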

How the results depend on the processing

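Among called members and other complement genes named with a test, direction held under every alternative run, and calls were lost or gained only as named here and beside the results. In CAF1 over CAF2, 2 members passed, against 4 with tumour as a block, 4 in DESeq2 and 1 to 3 with a library or tumour left out. C3 passed in the fit of all 30 libraries (adjusted p = 0.0194, edgeR) and C4b (0.0539), C1s1 (0.0903), C1s2 (0.115), Thbd (0.0598) and Colec12 (0.0631) did not. Without the CD206neg libraries of tumours 6 and 8, members passing fell to 1 in CD206hi over CD206neg and 1 in CD206pos over CD206neg (1 to 3 with a library or tumour left out), with 545 and 930 genes called in all. All genes called in CD206hi over CD206pos were 21, against 97 with the block, 83 in DESeq2, 36 in the fit of all libraries and 0 to 48 with a library or tumour left out. The 0 arose without tumour 6, 10 or 11, where 723, 437 and 609 genes had an unadjusted p under 0.05 in edgeR. In CD206hi over CD206neg the count was 1110, against 1791 with the block and 535 to 1187 with a library or tumour left out, and in CD206pos over CD206neg 1625, against 2800 and 765 to 2070.

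Signs turned only for differences that did not pass. C1ra in TAMs over EC was -0.003 with the block, -0.001 in DESeq2 and -0.001 with RLE factors, and -0.192 to 0.374 with a library or tumour left out. In EC over fibroblasts C1qa was -0.024 and C1qc -0.039 with the block, and the left-out ranges were -0.771 to 0.485 for C1qa, -0.088 to 0.98 for C1qb, -0.939 to 0.589 for C1qc and -0.418 to 0.429 for C3ar1. The ranges were -0.661 to 0.022 for Serping1 in CAF1 over CAF2, and in CD206hi over CD206pos -0.179 to 0.237 for C1ra, -0.286 to 0.875 for C4b and -0.083 to 0.279 for C3ar1. In CD206hi over CD206neg they were -0.658 to 0.092 for C1qa, -0.607 to 0.063 for C1qb, -0.607 to 0.073 for C1qc, -0.059 to 0.317 for C3 and -0.22 to 0.937 for Serping1. The chain ratios of CD206hi minus CD206neg ranged from -0.0902 to 0.0194 (C1qa over C1qb) and from -0.0226 to 0.00503 (C1qc over C1qb). The cause of these changes was not tested. Values near 3 counts, 0.251 to 0.477 CPM, such as C3ar1 in the stroma, are limited by depth.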
